A study of Mus musculus with 10 samples.

Results

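The axon guidance genes described here are the ephrins and their Eph receptors, the semaphorins with their plexin and neuropilin receptors, the Slits with their Robo receptors, and the netrins with Dcc and the Unc5 receptors. They were picked by gene symbol from a table of raw read counts, and 68 of its 52459 genes matched, 34 encoding ligands and 34 encoding receptors. The ligands were 5 ephrin A genes, 3 ephrin B genes, 7 class 3 semaphorins, 13 semaphorins of classes 4 to 7, 3 Slits and 3 netrins. The receptors were 9 EphA and 5 EphB genes, 9 plexins, 2 neuropilins, 4 Robos and 5 netrin receptors. Of the 68, 67 passed the filter on low counts and were tested. The exception was Plxnb3, a class B plexin, with 0 to 7 reads in any library.

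Guidance cues are proteins that are secreted or held on a cell's surface and that steer growing axons and migrating cells by attraction or repulsion. Ephrins A are tethered to the membrane by a lipid anchor and ephrins B span it, so both act between touching cells, and their receptors are Eph tyrosine kinases. Class 3 semaphorins are secreted and mostly bind a neuropilin paired with a class A plexin, whereas most other vertebrate semaphorins are membrane proteins that bind plexins directly. Slits are secreted and repel cells that carry Robo receptors, and netrins attract through Dcc and repel through Unc5 receptors. In the embryo the same families also act before axons form, in boundary formation between somites and between hindbrain segments, in neural crest migration and in vessel growth.

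The cells were mouse embryonic stem cells of the ES-Bruce4 line, from the C57BL/6 strain, which were differentiated towards neuromesodermal progenitors, the bipotent cells of the embryo's posterior end that feed the spinal cord and the trunk mesoderm. Every group received bFgf, a fibroblast growth factor, at 10 ng/ml from the start of differentiation. CHIR99021, which activates Wnt signalling by inhibiting the kinase Gsk3, was added at 5 µM on day 2. The groups were day 2 (D2), labelled as epiblast stem cells, then day 3 (D3), day 6 (D6) and day 7 (D7), and day 7 after 24 h of Gdf11 at 50 ng/ml from day 6 (D7G). Gdf11 is a TGF-beta family ligand known for its part in the change from trunk to tail. Each of these 5 groups had 2 libraries of total RNA. All groups are labelled wild type (WT) and share 1 cell line. The cells had been grown on mouse embryo fibroblast feeders with a single depletion before the start. The labels do not say that the libraries of a group came from separate cultures, so the spread behind every p-value is that of these libraries alone and may be technical.

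The libraries held 31078950 to 33418015 counts each, with 1.86 to 2.48% from mitochondrial genes. The lowest correlation of log2 levels within a group was 0.998 and the highest between groups was 0.995. A list of 10 neuromesodermal markers summed to 17.2 to 17.7 CPM (read counts scaled to library size, by the trimmed mean of M-values) in D2, 1047.5 to 1075 in D3, 489 to 516 in D6, 226 to 238 in D7 and 183 to 194 in D7G. The D6 and D7 libraries, labelled as neuromesodermal progenitors, thus held these markers at lower levels than D3. A list of 12 spinal cord progenitor markers summed to 85.0 to 87.6 CPM in D3 and to 385 to 399 in D7. In bulk RNA, fewer cells of a type and less RNA per cell cannot be told apart, here and in every result that follows.

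**Figure D1:**
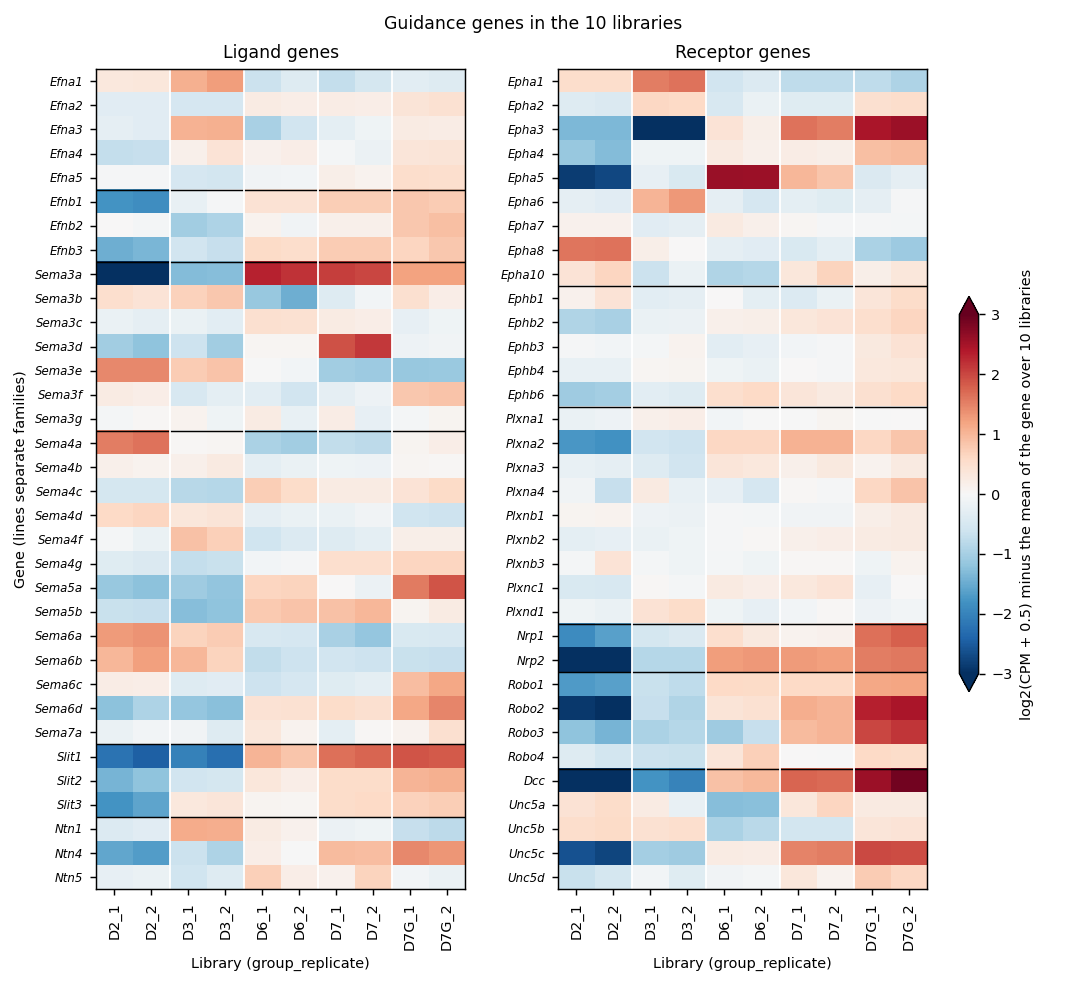
Level of each of the 68 genes in each library, as log2(CPM + 0.5) minus the gene's mean over the 10 libraries, ligands left and receptors right; the colour scale ends at -3 and 3. Columns are libraries (group_replicate) and black lines separate families. Sema3a, Nrp2, Robo2, Dcc and Unc5c are blue in D2 and red from D6 or D7 on, Sema3e runs the other way, and Sema3d is red in the 2 D7 libraries.

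Ligand and receptor genes were read at each step of the protocol. A gene was called higher or lower where the adjusted p of edgeR's quasi-likelihood test was under 0.05. From D2 to D3, 32 members were higher and 19 lower, against 29.6% of all tested genes called higher and 28.9% called lower. The rises lay more among receptors, of which 20 were higher and 8 lower, than among ligands, of which 12 were higher and 11 lower. Changes of at least 2-fold numbered 19 up and 4 down, with 8.67% and 5.51% of all genes past that rule. The median log2 fold change was 0.68 over receptors, -0.01 over ligands and 0.00 over all genes tested. That difference between ligands and receptors, -0.69, was -0.48 without D2 replicate 2.

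From D3 to D6, 36 members were higher and 23 lower, with 32.4% and 33.3% of all tested genes called in those directions. Of these, 19 rose and 11 fell at least 2-fold, with 6.95% and 14.1% of all genes past that rule. Ligands and receptors each had 18 higher, with 12 ligands and 11 receptors lower, and their medians were 0.50 and 0.22. The difference between those medians, 0.28, was 0.17 without D3 replicate 1 and 0.18 without D6 replicate 1. From D6 to D7, 24 were higher and 14 lower, where 20.5% and 15.6% of all genes were called, and 7 rose and 2 fell at least 2-fold, with 2.63% and 0.707% of all genes past that rule. Addition of Gdf11 gave 39 higher and 11 lower members in D7G against D7, with 22.5% and 18.2% of all genes called. With Gdf11, 19 ligands and 20 receptors were higher, 7 ligands and 4 receptors were lower, and the medians were 0.24 and 0.34 against 0.02 over all genes tested. With Gdf11, 10 members rose and 2 fell at least 2-fold, where 4.25% and 0.957% of all genes passed the same rule.

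**Figure D2:**
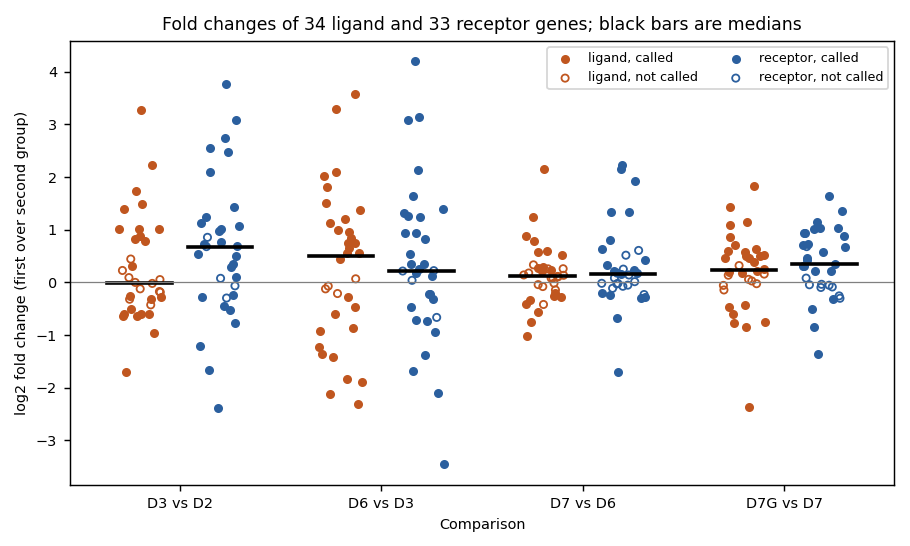
Log2 fold changes of the 34 ligand and 33 tested receptor genes in the 4 comparisons; each point is a gene, filled where called, and black bars are medians. Receptors sit higher than ligands in D3 against D2, with medians of 0.68 and -0.01, and both medians lie above 0 in D7G against D7, at 0.24 and 0.34.

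Levels between genes were compared as CPM per kilobase of the gene's counted length. Summed over the 34 ligand genes, the level per kilobase was 125 ± 0.340 (SD over 2 libraries) in D2, 147 ± 5.19 in D3, 171 ± 3.90 in D6, 173 ± 0.460 in D7 and 196 ± 4.94 in D7G. The receptor sum was 162 ± 0.831, 218 ± 2.91, 195 ± 5.06, 208 ± 2.26 and 267 ± 8.03 in the same order. The receptor sum exceeded the ligand sum in every group. Most members were detected early: 32 of 34 ligands and 27 of 34 receptors were at 1 CPM or more in D2.

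Among the ephrin ligands, Efnb1 rose at each untreated step, Efnb3 rose into D3 and D6, and 2 ephrin A genes had their highest levels in D3. Efnb1, an X-linked transmembrane ephrin known for keeping boundaries in the craniofacial skeleton, measured 13.7 and 13.1 CPM in the 2 D2 libraries, 41.7 and 47.4 in D3, 66.1 and 65.9 in D6, 81.1 and 81.2 in D7, and 86.2 and 82.8 in D7G. The libraries of successive groups did not overlap. The log2 fold change was 1.74 ± 0.07 (SE) from D2 to D3 (adjusted p = 1.79e-14), 0.57 ± 0.05 from D3 to D6 and 0.30 ± 0.05 from D6 to D7, and 0.06 ± 0.05 with Gdf11 (adjusted p = 0.394).

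Efnb2, the ephrin known for arteries and somite boundaries, took another course. Its levels were 64.0 and 60.9 CPM in D2, 30.8 and 33.3 in D3, 68.9 and 59.3 in D6, 71.0 and 70.5 in D7, and 112 and 119 in D7G. D3 was the low group and D7G the high one, with a fall of -0.96 ± 0.06 into D3, a rise of 1.00 ± 0.06 into D6 and a rise of 0.71 ± 0.06 with Gdf11 (adjusted p = 4.91e-09). Efnb3, the third ephrin B, rose into D3 by 0.82 ± 0.09 and into D6 by 1.21 ± 0.07. Its 0.21 ± 0.06 into D7 (adjusted p = 0.0133) was not called in DESeq2 (0.0642), without the filter on low counts (0.0671), or without any 1 of 3 libraries, D6 replicate 2 (0.0846), D7 replicate 1 (0.110) and D7 replicate 2 (0.114). The make-up of the family changed: per kilobase, Efnb2 held 58.5 ± 0.955% of the summed ephrin B level in D2, and Efnb1 held 58.1 ± 2.19% in D3 and 51.0 ± 0.0681% in D7. The family sum went from 15.6 ± 0.286 in D2 to 53.4 ± 0.940 CPM per kilobase in D7G.

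Efna1 and Efna3, lipid-anchored ephrins, had their highest values in D3. Efna3 measured 25.6 and 26.2 CPM in D3 against 10.0 and 9.62 in D2 and 5.95 and 7.97 in D6, a rise of 1.40 ± 0.09 and then a fall of -1.90 ± 0.10 (adjusted p = 1.24e-12). Efna1 measured 9.68 and 10.9 CPM in D3 and 2.61 and 3.20 in D6, a fall of -1.83 ± 0.13 (adjusted p = 1.47e-10). Efna4 had the highest level per kilobase of the ephrin A genes in every group, between 9.05 ± 0.198 in D2 and 19.5 ± 0.347 in D7G. It measured 14.2 and 14.7 CPM in D2, 26.4 and 31.9 in D3, 26.2 and 27.3 in D6, 22.9 and 21.1 in D7, and 30.7 and 31.5 in D7G, and rose by 0.50 ± 0.08 with Gdf11. Part of Efna4 (10.5% of its counted length) and of Efna3 (14.1%) overlaps exons of a gene on the opposite strand, and whether the counting used strand is not given in the sources used here.

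Efna5, an ephrin used in topographic maps of the visual system, was lowest in D3 and highest in D7G. It measured 17.2 and 17.4 CPM in D2, 12.4 and 11.9 in D3, 16.5 and 16.7 in D6, 20.1 and 19.2 in D7, and 26.0 and 25.4 in D7G. It fell into D3 by -0.51 ± 0.07, rose into D6 by 0.45 ± 0.07 and was 0.39 ± 0.06 higher with Gdf11 (adjusted p = 6.78e-05). With Gdf11, beside 22.5% higher and 18.2% lower of all tested genes, 4 of 5 ephrin A genes were higher and none lower. Of the 3 ephrin B genes, 1 was higher. The smallest of these rises, 0.22 ± 0.07 in Efna2 (adjusted p = 0.0142), was not called without D7 replicate 1 (0.0647), D7 replicate 2 (0.116) or D7G replicate 2 (0.145).

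The EphA receptors changed in opposite directions. Epha1 and Epha2 were the most abundant per kilobase from D2 to D7 and highest in D3, whereas Epha3 and Epha5, known for retinal and motor axon guidance, were at 3.89 CPM or less in D2 and D3 and rose by D6. Epha2 measured 92.4 and 89.1 CPM in D2, 185 and 183 in D3, 87 and 104 in D6, 93.8 and 93.8 in D7, and 168 and 175 in D7G. D3 and D7G lay above the other groups, with a rise of 1.02 ± 0.06 into D3, a fall of -0.94 ± 0.06 into D6 and a rise of 0.87 ± 0.06 with Gdf11 (adjusted p = 1.71e-10). Epha1 measured 64.9 and 64.8 CPM in D2, 132 and 140.3 in D3, 30.0 and 33.6 in D6, 26.3 and 26.2 in D7, and 26.1 and 23.3 in D7G. It fell by -2.1 ± 0.06 from D3 to D6 (adjusted p = 8.36e-17), and with Gdf11 its change of -0.09 ± 0.07 did not pass (adjusted p = 0.329). On the opposite strand, Zyx overlaps 6.01% of the counted length of Epha1, and its mean count over the libraries was 3983 against 1812 for Epha1.

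Epha3 measured 2.75 and 2.77 CPM in D2, 0.490 and 0.555 in D3, 10.5 and 8.94 in D6, 25.3 and 23.6 in D7, and 44.8 and 48.4 in D7G. It fell into D3 by -2.39 ± 0.23 and then rose in each comparison, by 4.2 ± 0.17 into D6 (adjusted p = 2.96e-14), 1.33 ± 0.08 into D7 and 0.93 ± 0.07 with Gdf11. The rise into D6 was the largest of any guidance gene in that comparison. Epha5 had its high point at D6: 0.229 and 0.296 CPM in D2, 3.89 and 3.33 in D3, 30.9 and 30.4 in D6, 9.90 and 8.85 in D7, and 3.42 and 3.89 in D7G. It rose by 3.76 ± 0.25 and 3.08 ± 0.10 and then fell by -1.71 ± 0.09 into D7 (adjusted p = 3.92e-11) and by -1.36 ± 0.12 with Gdf11 (adjusted p = 1.11e-08). So of this pair, 1 was higher and 1 lower in D7 than in D6, and likewise in D7G against D7, 2 comparisons that share the D7 libraries.

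Epha4, a receptor that binds both ephrin classes and is known from hindbrain segments and the spinal cord, measured 13.1 and 11.6 CPM in D2, 27.0 and 26.8 in D3, 35.5 and 32.8 in D6, 34.4 and 33 in D7, and 55.1 and 56.7 in D7G. It rose into D3 by 1.12 ± 0.07 and with Gdf11 by 0.73 ± 0.06. Epha7 stayed between 32.1 and 49.3 CPM in all 10 libraries, at 44.6 and 44.6 in D2, 32.1 and 33.6 in D3, 49.3 and 45.6 in D6, 42.5 and 39.7 in D7, and 40.0 and 39.1 in D7G, and its change with Gdf11, -0.05 ± 0.06, did not pass (adjusted p = 0.480). Epha8 fell into D3, from 10.3 and 10.6 to 3.52 and 3.12 CPM, by -1.65 ± 0.12. Epha6 and Epha10 were at or below 2.86 CPM in every library.

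The 5 EphB genes moved less, between -0.77 and 1.01 on the log2 scale over the 4 comparisons. All 5 were called higher with Gdf11, where 22.5% of all tested genes were. For Ephb6, a member without kinase activity, that call (0.23 ± 0.07, adjusted p = 0.0167) was lost without D7 replicate 2 (0.180) or D7G replicate 2 (0.218). Ephb4, known for its pairing with Efnb2 at the border of arteries and veins, was the most abundant per kilobase in every group. It measured 63.3 and 63.3 CPM in D2, 77.0 and 78.5 in D3, 67.9 and 64.8 in D6, 74.9 and 72.5 in D7, and 93.2 and 93.6 in D7G, a rise of 0.34 ± 0.04 with Gdf11 (adjusted p = 1.87e-06). Ephb2 measured 27.1 and 25.8, 44.9 and 45.4, 56.7 and 57.7, 64.8 and 68.3, and 72.8 and 80.8 CPM in the same order, higher in each successive group. Its rise into D3, 0.77 ± 0.06, was the largest of them. The later rises were small, 0.22 ± 0.05 into D7 (adjusted p = 0.00296, and 0.101 without D7 replicate 2) and 0.21 ± 0.05 with Gdf11 (adjusted p = 0.00312, and 0.0760 and 0.128 without D7 replicate 1 and D7G replicate 2).

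**Figure D3:**
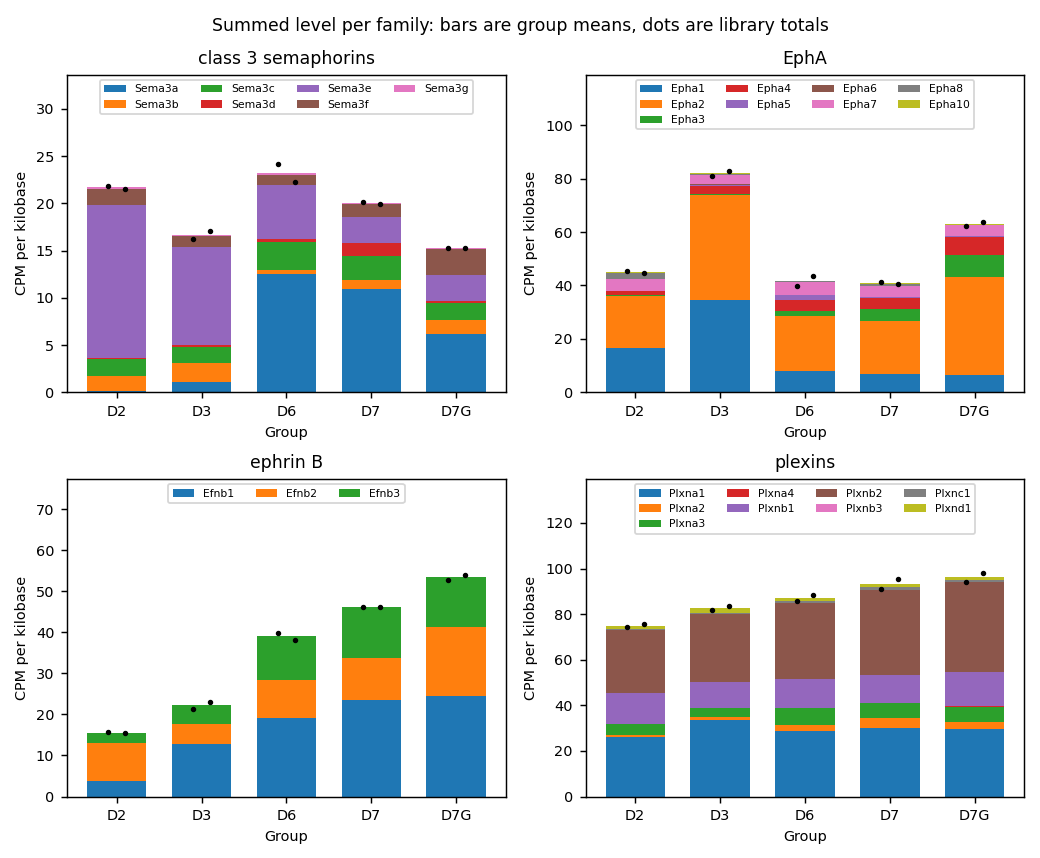
Level per kilobase of the class 3 semaphorins, EphA receptors, ephrin B ligands and plexins, summed within each family and stacked by gene; bars are means of 2 libraries and dots are the library sums. Sema3e gives way to Sema3a between D3 and D6, Efnb2 to Efnb1 between D2 and D3, the EphA sum is highest in D3 (82.1 CPM per kilobase), and the plexin sum stays between 74.9 and 96.1.

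The secreted class 3 semaphorins changed their leading member. In D2, Sema3e, a ligand of Plxnd1 known from blood vessel patterning, held 74.6 ± 0.454% of the summed level per kilobase of the 7 genes, and in D3 62.5 ± 0.835%. In D6, Sema3a, the prototype repellent of sensory axons, held 54.2 ± 0.406%, in D7 54.7 ± 1.49% and in D7G 40.0 ± 0.186%. Sema3a measured 1.38 and 1.65 CPM in D2, 14.6 and 14.7 in D3, 182 and 166 in D6, 156 and 148 in D7, and 85.2 and 84.7 in D7G. D6 was highest and no libraries of different groups overlapped. The rises were 3.27 ± 0.12 into D3 (adjusted p = 8.38e-15) and 3.57 ± 0.06 into D6 (adjusted p = 9.51e-20). With Gdf11 it fell by -0.84 ± 0.05 (adjusted p = 1.78e-11), while the -0.20 ± 0.04 from D6 to D7 had an adjusted p of 0.0018, and of 0.0580 without D6 replicate 1.

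Sema3e fell at each untreated step, from 150.7 and 149.9 CPM in D2 to 93.6 and 100.03 in D3, 54.3 and 51.6 in D6, and 26.4 and 25.7 in D7, and stood at 24.8 and 25.3 in D7G. The falls were -0.64 ± 0.04, -0.87 ± 0.05 and -1.02 ± 0.05 (adjusted p = 5.67e-11 for the last), and the change with Gdf11, -0.06 ± 0.06, did not pass (adjusted p = 0.462). Sema3d, a semaphorin known from endothelial and neural crest development, stood out in D7. It measured 0.982 and 0.823 CPM in D2, 1.47 and 0.987 in D3, 2.70 and 2.68 in D6, 11 and 12.8 in D7, and 2.26 and 2.36 in D7G. It rose by 2.14 ± 0.14 from D6 to D7 (adjusted p = 8.94e-10) and was lower by -2.36 ± 0.14 with Gdf11 (adjusted p = 5.36e-11). Both comparisons rest on the same pair of D7 libraries.

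Sema3b, which lies on chromosome 9 near Sema3f, measured 9.10 and 9.96 CPM in D3 and 2.19 and 1.65 in D6, a fall of -2.31 ± 0.16 (adjusted p = 9.33e-11). It then rose by 1.24 ± 0.18 into D7 (adjusted p = 2.23e-05) and by 0.63 ± 0.14 with Gdf11 (adjusted p = 0.00118). Sema3f, a ligand with a preference for Nrp2, measured 6.40 and 6.99 CPM in D7 and 14.0 and 14.5 in D7G, a rise of 1.09 ± 0.10 (adjusted p = 5.24e-08). Sema3c was between 12.1 and 21.3 CPM throughout, and Sema3g was below 1 CPM in every library and called in no comparison. With Gdf11, 2 of 7 class 3 genes were higher and 3 lower, beside 22.5% and 18.2% of all tested genes.

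Of the 13 membrane semaphorins of classes 4 to 7, 1 was higher and 7 lower in D3 against D2, beside 29.6% and 28.9% of all tested genes. With Gdf11, 9 were higher and 2 lower, beside 22.5% and 18.2% of all tested genes. Of the 9, Sema4b was not called without any 1 of the 4 day 7 libraries (adjusted p from 0.0729 to 0.174), Sema7a without D7 replicate 1 (0.305) or D7G replicate 2 (0.370), and Sema4c without D7G replicate 2 (0.0876). Sema5a, a transmembrane semaphorin with thrombospondin repeats, measured 15.0 and 14.1 CPM in D2, 15.7 and 14.5 in D3, 52.7 and 53.4 in D6, 33.8 and 29.5 in D7, and 99.96 and 125 in D7G. It rose into D6 by 1.81 ± 0.09, fell into D7 by -0.75 ± 0.09 and was 1.83 ± 0.08 higher with Gdf11 (adjusted p = 6.87e-13), the largest rise of any guidance gene in that comparison. Sema5b, its closest relative, measured 77.7 and 81.2 CPM in D6, 83.0 and 88.9 in D7 and 46.9 and 53.3 in D7G. It had risen by 2.1 ± 0.06 into D6 and fell with Gdf11 by -0.78 ± 0.06 (adjusted p = 1.13e-09), so the 2 class 5 genes moved in opposite directions on treatment.

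Sema6a, a class 6 semaphorin that signals through class A plexins, measured 149 and 154 CPM in D2, 97.2 and 103 in D3, 43.0 and 42.5 in D6, 30.5 and 27.1 in D7, and 44.1 and 43.3 in D7G. It fell at all 3 untreated steps, most from D3 to D6 (-1.23 ± 0.05, adjusted p = 4.68e-14), and rose with Gdf11 by 0.60 ± 0.06 (adjusted p = 5.7e-08). Sema6c measured 7.66 and 7.98 CPM in D7 and 19.4 and 22.7 in D7G, a rise of 1.43 ± 0.09 (adjusted p = 1.62e-10). Sema4c, a ligand of Plxnb2, measured 35.2 and 35.3 CPM in D2, 28.6 and 28.2 in D3, 86.1 and 75.3 in D6, 60.8 and 60.7 in D7, and 67.9 and 76.5 in D7G. It rose by 1.51 ± 0.06 into D6 (adjusted p = 6.97e-14), became the most abundant membrane semaphorin per kilobase in D6, and shares 7.27% of its counted length with a gene on the opposite strand.

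Sema4a and Sema4f were below 10 CPM in every library, and both fell from D3 to D6. Sema4a had already fallen before: it went from 8.45 and 9.16 CPM in D2 to 2.67 and 2.75 in D3, a fall of -1.70 ± 0.13 (adjusted p = 6.27e-10), and it fell into D6 by -1.37 ± 0.19 (adjusted p = 2.59e-06). With Gdf11 it rose by 1.14 ± 0.175 (adjusted p = 2.65e-05), from 1.35 and 1.29 CPM in D7 to 2.76 and 3.08 in D7G. Sema4f went from 9.16 and 8.11 CPM in D3 to 2.99 and 3.45 in D6, a fall of -1.42 ± 0.13 (adjusted p = 4.46e-09). The remaining membrane semaphorins, Sema4b, Sema4d, Sema4g, Sema6b, Sema6d and Sema7a, lay between 0.579 and 56.0 CPM over the 10 libraries. Among them, Sema6d rose into D6 by 2.02 ± 0.19 and with Gdf11 by 0.86 ± 0.13, and Sema6b fell into D6 by -2.11 ± 0.24. Sema4d fell into D3 (-0.26 ± 0.05), into D6 (-0.61 ± 0.06) and with Gdf11 (-0.47 ± 0.06), and was not called into D7.

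The semaphorin receptors divided into neuropilins, which changed widely, and plexins, most of which changed less than 2-fold. Nrp2, the co-receptor that prefers Sema3f, measured 6.22 and 6.82 CPM in D2, 36.3 and 36.3 in D3, 157 and 161 in D6, 159.8 and 155 in D7, and 193 and 198 in D7G. The rises into D3 and D6 were 2.48 ± 0.07 (adjusted p = 5.01e-17) and 2.14 ± 0.04 (adjusted p = 1.72e-18), and the change from D6 to D7 was -0.02 ± 0.04 (adjusted p = 0.760). Nrp1, the co-receptor of Sema3a and also of Vegfa, was far lower, at 2.23 and 2.73 CPM in D2, 6.46 and 6.91 in D3, 13.7 and 11.8 in D6, 10.4 and 10.4 in D7, and 31 and 34.3 in D7G. It rose with Gdf11 by 1.65 ± 0.09 (adjusted p = 5.99e-12), the largest rise of any receptor in that comparison, and Nrp2 rose by 0.31 ± 0.04 (adjusted p = 1.54e-06). Per kilobase, Nrp2 held 92.6 ± 0.178% of the neuropilin sum in D7 and 83.2 ± 0.725% in D7G.

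Plexins are the signalling subunits of most semaphorin receptors, and Plxnb2 and Plxna1 were the most abundant of them per kilobase in every group. Plxnb2, with widespread roles in neural tube closure and progenitor growth, measured 194 and 198 CPM in D2, 205 and 215 in D3, 232 and 242 in D6, 261 and 272 in D7, and 278 and 286 in D7G. Plxna1 stayed between 234 and 308 CPM in all libraries, and 10.7% of its counted length overlaps a gene on the opposite strand. Plxna2, a partner of Nrp1 and Nrp2 and of Sema6a, measured 9.50 and 9.06 CPM in D2, 22.3 and 21.5 in D3, 51.5 and 51.6 in D6, 69.1 and 68.6 in D7, and 51.7 and 59.2 in D7G. It rose by 1.24 ± 0.08, 1.24 ± 0.06 and 0.42 ± 0.06 at the untreated steps and fell by -0.31 ± 0.06 with Gdf11 (adjusted p = 0.000143). Plxna2 was the 1 plexin to change at least 2-fold in D3 against D2 and again in D6 against D3. With Gdf11, 2 of the 8 plexins tested were higher, 2 lower and 4 not called, beside 22.5% higher and 18.2% lower of all tested genes. Plxna4 was between 0.362 and 2.02 CPM over the libraries, and its call with Gdf11 was lost without D7 replicate 2 (adjusted p = 0.0521) or D7G replicate 2 (0.0564).

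Of the Slit ligands, Slit3 had the highest level per kilobase in D3 and Slit1 from D6 on. Slit1, expressed mainly in the nervous system, measured 2.52 and 2.07 CPM in D2, 2.94 and 2.44 in D3, 27.9 and 24.8 in D6, 43.9 and 46.5 in D7, and 52.1 and 50.1 in D7G. It rose by 3.29 ± 0.11 from D3 to D6 (adjusted p = 7.64e-16) and by 0.78 ± 0.07 into D7 (adjusted p = 5.39e-08). Its change with Gdf11 was 0.18 ± 0.06 (adjusted p = 0.0326), which was no longer called without any 1 of the 4 day 7 libraries (adjusted p from 0.0514 to 0.295), nor without D3 replicate 1 (0.0623) or D3 replicate 2 (0.0614). Slit2, the repellent of the ventral midline together with its relatives, measured 7.34 and 8.37 CPM in D2, 13.4 and 13.7 in D3, 25.4 and 23.2 in D6, 29.5 and 29.5 in D7, and 41.6 and 42.9 in D7G. Each group lay above the one before it. Its rise with Gdf11 was 0.52 ± 0.06 (adjusted p = 1.35e-06), and its smallest rise, 0.28 ± 0.07 into D7 (adjusted p = 0.00256), was not called without D6 replicate 2 (0.0529).

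Slit3, known from the diaphragm and vessels, measured 2.23 and 2.67 CPM in D2 and 11.2 and 11.7 in D3, a rise of 2.22 ± 0.11 (adjusted p = 1.85e-12), and lay between 9.26 and 15.2 in the later groups. Per kilobase, Slit3 held 65.6 ± 1.83% of the summed Slit level in D3 and Slit1 held 64.0 ± 1.10% in D6. The family sum went from 1.10 ± 0.0267 in D2 to 12.8 ± 0.164 CPM per kilobase in D7G.

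All 4 Robo receptors were higher with Gdf11, where 22.5% of all tested genes were. None of the 4 was lower in D3 against D2 or in D6 against D3, where 28.9% and 33.3% of all tested genes were. Robo4 was lower in D7 against D6, where 15.6% of all tested genes were. Robo1, the widely expressed receptor of the family, measured 18.3 and 19.5 CPM in D2, 38.5 and 36 in D3, 92.6 and 91.7 in D6, 92.8 and 93.3 in D7, and 137 and 139.5 in D7G. It rose by 0.98 ± 0.06 and 1.31 ± 0.05 into D3 and D6, did not change detectably into D7 (0.01 ± 0.04, adjusted p = 0.839), and rose by 0.57 ± 0.04 with Gdf11 (adjusted p = 1.4e-09). Robo2 measured 1.77 and 1.35 CPM in D2, 9.90 and 8.48 in D3, 21.5 and 22.5 in D6, 35.2 and 33.6 in D7, and 84.8 and 91.2 in D7G. It rose in all 4 comparisons, by 2.56 ± 0.14 (adjusted p = 5.33e-12), 1.26 ± 0.08, 0.64 ± 0.07 and 1.36 ± 0.06 (adjusted p = 9.64e-13).

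Robo3, the receptor known for midline crossing of commissural axons, measured 1.15 and 0.955 CPM in D2, 1.47 and 1.6 in D3, 1.32 and 1.84 in D6, 6.88 and 7.23 in D7, and 14.8 and 16.4 in D7G. The 6 libraries up to D6 were all below 2 CPM. After its rise into D7 of 2.16 ± 0.16 it rose further with Gdf11, by 1.14 ± 0.11 (adjusted p = 3.53e-08). Robo4, which marks endothelium, was between 0.802 and 2.91 CPM over the libraries. It measured 2.16 and 2.91 in D6, 1.59 and 1.57 in D7, and 2.63 and 2.55 in D7G. It was lower in D7 than in D6 by -0.68 ± 0.19 (adjusted p = 0.00908, and 0.0702 in DESeq2). Its Gdf11 change of 0.72 ± 0.19 had an adjusted p of 0.00512, and of 0.0590 in DESeq2. Both comparisons rest on the same D7 libraries. Beside Robo4, a list of 9 endothelium and blood markers summed to 18.8 to 20.1 CPM in D7 and 21.0 to 26.6 in D7G. Of the 7 tested, 0 were called higher and 0 lower, beside 22.5% and 18.2% of all tested genes, and 7 genes are too few to weigh against those shares. Their median log2 fold change was 0.42, against 0.02 over all genes tested. The part of this list in the result was not tested. Robo1 held 85.1 ± 2.28% of the Robo sum per kilobase in D2 and 69.3 ± 0.840% in D7G.

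Among the netrin ligands, Ntn1 was highest in D3 and Ntn4 rose throughout. Ntn1, the secreted netrin of the floor plate and neural progenitors, measured 44.9 and 47.3 CPM in D2, 129.9 and 129 in D3, 70.7 and 65.2 in D6, 53.0 and 54.4 in D7, and 36.9 and 34.4 in D7G. It rose into D3 by 1.49 ± 0.05 (adjusted p = 2.2e-15) and then fell in each comparison, by -0.93 ± 0.05, -0.34 ± 0.05 and, with Gdf11, -0.59 ± 0.05 (adjusted p = 2.88e-08). Ntn4, a laminin-like netrin of basement membranes, went the other way, from 1.77 and 1.61 CPM in D2 to 12.4 and 12.3 in D7 and 17.7 and 16.4 in D7G, with rises of 1.02 ± 0.17, 0.96 ± 0.13, 0.89 ± 0.11 and, with Gdf11, 0.47 ± 0.09 (adjusted p = 0.00038). Ntn1 held 94.2 ± 0.325% of the netrin sum per kilobase in D3 and 52.8 ± 0.158% in D7G. Ntn5 stayed between 0.674 and 2.45 CPM, and 23.4% of its counted length overlaps Sec1 on the opposite strand.

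Dcc, the receptor through which netrins attract, lies on chromosome 18 (mm10, 71258738 to 72351069, minus strand). It measured 0.262 and 0.263 CPM in D2, 1.96 and 1.6 in D3, 15.2 and 16.3 in D6, 27.8 and 26.9 in D7, and 49.7 and 62.8 in D7G. It rose in all 4 comparisons, by 2.74 ± 0.37, 3.14 ± 0.15 (adjusted p = 3.71e-13), 0.80 ± 0.09 and 1.04 ± 0.08 (adjusted p = 4.77e-09). Unc5c, a repulsive netrin receptor, measured 0.950 and 0.823 CPM in D2, 3.86 and 3.73 in D3, 10.1 and 9.81 in D6, 24.6 and 25.4 in D7, and 34.5 and 33.9 in D7G. It also rose in all 4, by 2.09 ± 0.17, 1.39 ± 0.10, 1.33 ± 0.07 (adjusted p = 1.29e-10) and 0.45 ± 0.06.

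Unc5b, a netrin receptor with a known role in vessels, was the most abundant of the 5 per kilobase in every group and had its low point at D6. It measured 88.4 and 92.0 CPM in D2, 84.7 and 87.6 in D3, 31.5 and 34.9 in D6, 41.5 and 41.6 in D7, and 78.9 and 81.1 in D7G. It fell by -1.37 ± 0.05 into D6 (adjusted p = 8.35e-15), and rose by 0.32 ± 0.05 into D7 and by 0.94 ± 0.05 with Gdf11 (adjusted p = 8.95e-12). Its share of the summed level per kilobase of the 5 netrin receptor genes went from 92.5 ± 0.163% in D2 to 53.1 ± 0.386% in D7. Unc5a was low in D6, at 0.933 and 0.968 CPM, and measured 3.95 and 4.97 in D7, a rise of 2.22 ± 0.21 (adjusted p = 1.66e-07). Unc5d was below 2 CPM throughout.

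**Figure D4:**
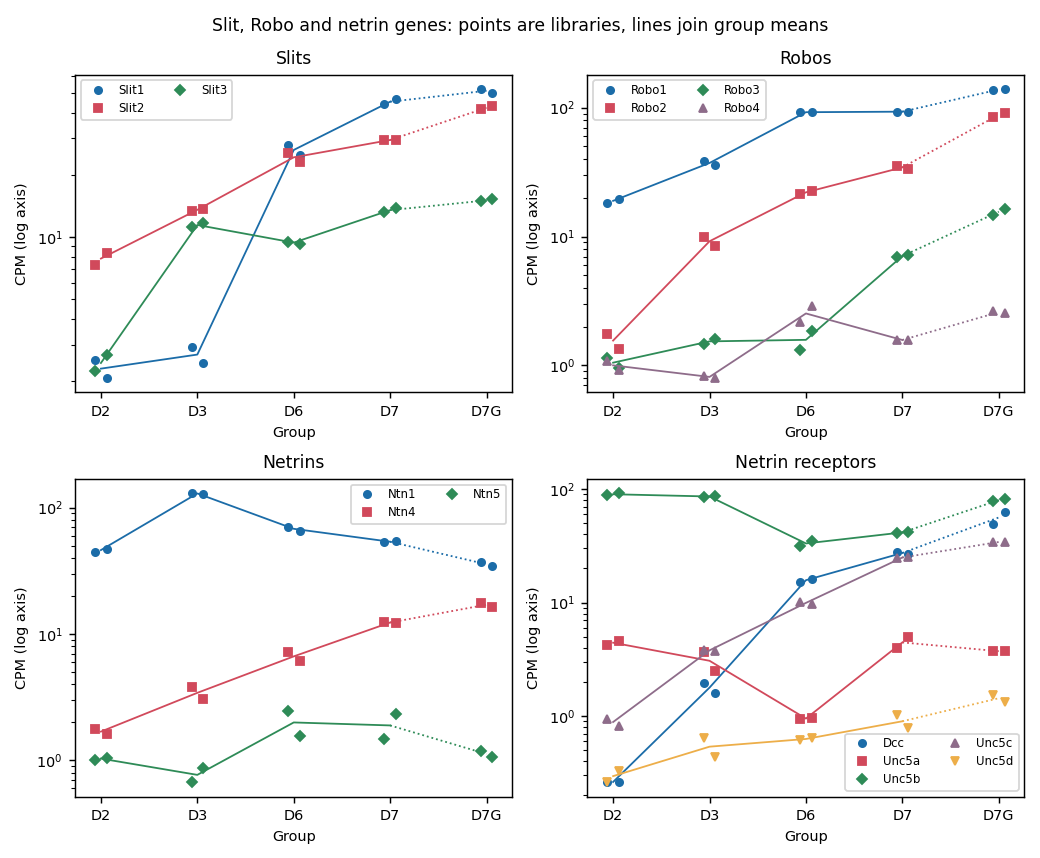
CPM on a log axis of the Slit, Robo, netrin and netrin receptor genes; points are libraries and lines join group means, dotted from D7 to D7G because D7G is a treatment and not a later day. Robo2, Dcc and Unc5c climb in every group, Ntn1 peaks in D3 (129.9 and 129 CPM), and Unc5b dips in D6 to 31.5 and 34.9.

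Taking the 3 untreated steps as a series, 10 members were called higher at every step, where 1.96% of all tested genes met the same rule. The ligands among them were Efnb1, Efnb3, Ntn4 and Slit2, and the receptors were Dcc, Ephb2, Plxna2, Plxnb2, Robo2 and Unc5c. Dcc, Ephb2, Ntn4, Robo2, Slit2 and Unc5c were also higher with Gdf11, while Plxna2 was lower and Efnb1, Efnb3 and Plxnb2 were not called. Efnb3, Ephb2, Plxnb2 and Slit2 each met the rule through a small rise that some single library decided. For Efnb3 the step into D7 had an adjusted p of 0.0133, and of 0.0642 to 0.114 in DESeq2, without the filter on low counts, or without D6 replicate 2, D7 replicate 1 or D7 replicate 2. For Plxnb2 the step into D3 had 0.0318, and 0.178, 0.0727 and 0.195 without D2 replicate 1, D2 replicate 2 or D3 replicate 2 and 0.0684 with upper-quartile scaling, and the step into D7 had 0.0972 without D7 replicate 2. The values for Ephb2 and Slit2 are 0.101 (without D7 replicate 2) and 0.0529 (without D6 replicate 2) at the step into D7. Sema3e and Sema6a were called lower at every step, where 0.760% of all genes were.

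**Figure D5:**
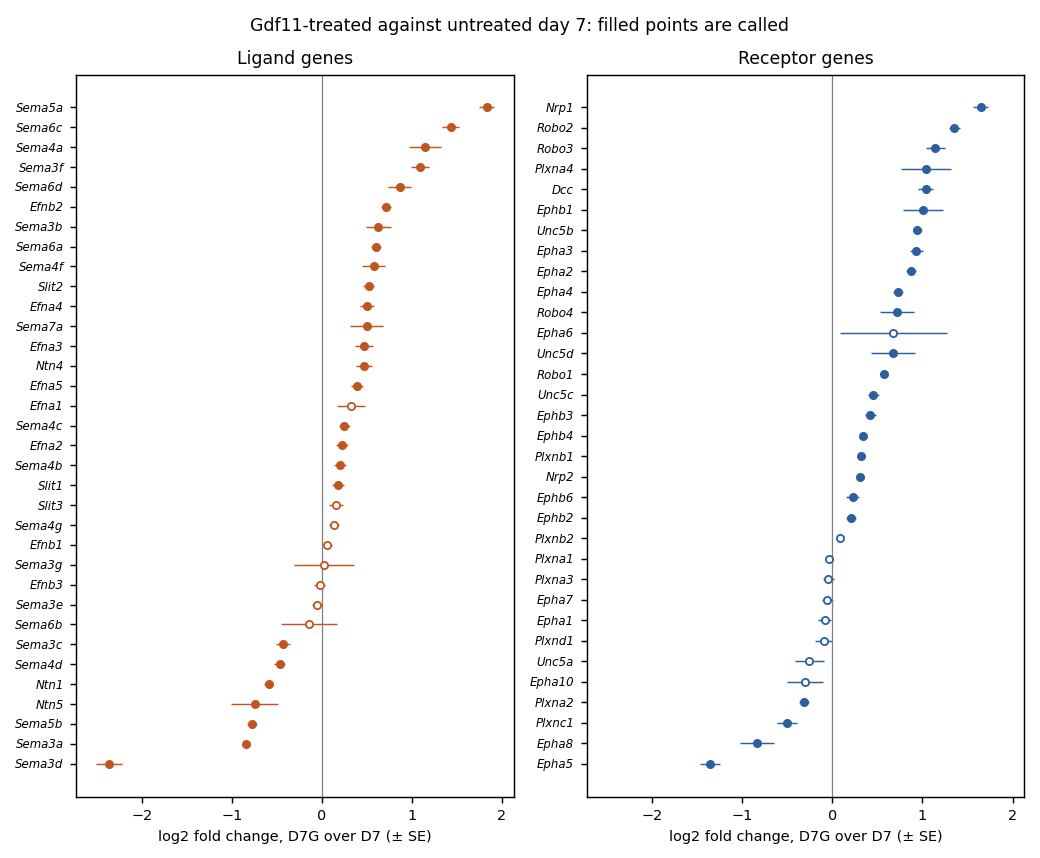
Log2 fold change with SE of each tested guidance gene in D7G against D7, ligands left and receptors right, sorted by change; filled points are called. Sema5a (1.83) and Nrp1 (1.65) are at the top and Sema3d (-2.36) and Epha5 (-1.36) at the bottom.

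Between Gdf11-treated and untreated day 7 cells, the rises of at least 2-fold among genes reaching 5 CPM were Sema5a, Nrp1, Sema6c, Robo2, Robo3, Sema3f and Dcc, and the falls were Sema3d and Epha5. By family, every Robo (4 of 4), EphB (5 of 5) and neuropilin (2 of 2) gene was higher, as were 4 of 5 ephrin A and 4 of 5 netrin receptor genes, with 22.5% higher and 18.2% lower over every gene tested. Of the netrins 2 were lower and 1 higher, and of the class 3 semaphorins 3 were lower and 2 higher. The counts of all these families, rising or mixed, are too small to weigh against those shares, and none was tested. Among these, Ntn5 was not called lower without D7 replicate 2 (adjusted p = 0.356) or D7G replicate 2 (0.113), Unc5d was not called higher without any 1 of the 4 day 7 libraries (0.0502 to 0.258), and the small rises of Efna2, Ephb2 and Ephb6 were lost without some of them (0.0647 to 0.218). DESeq2 did not call Efna2, Ephb6, Ntn5, Robo4, Sema4b, Sema7a, Slit1 or Unc5d (adjusted p from 0.0590 to 0.252). In Sema3a and Nrp1, a ligand with its co-receptor, the ligand was lower by -0.84 ± 0.05 and the co-receptor higher by 1.65 ± 0.09. In Ntn1 and Dcc the ligand was lower by -0.59 ± 0.05 and the receptor higher by 1.04 ± 0.08. In Slit2 and Robo2 both were higher, by 0.52 ± 0.06 and 1.36 ± 0.06, and in Efnb2 and Ephb4 both were higher, by 0.71 ± 0.06 and 0.34 ± 0.04. The ligand Sema6a was higher by 0.60 ± 0.06 and its receptor Plxna2 lower by -0.31 ± 0.06. Neither Sema3e (-0.06 ± 0.06) nor its receptor Plxnd1 (-0.10 ± 0.09) was called. These pairs are examples and not a full set of partners.

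Members of marker lists of other cell types were also called with Gdf11, some higher and some lower. Over all tested genes, 22.5% were higher and 18.2% lower in D7G against D7. Of 16 neuron markers, 11 were higher and 0 lower in D7G against D7, and their sum went from 183 to 188 CPM in the D7 libraries to 333 to 340.2 in D7G, with no marker at 0 in any group. In D7 against D6 the same list had 10 higher and 0 lower, from 121 to 124 CPM in D6, where 20.5% and 15.6% of all genes were called. The list was not low before that: it summed to 321 to 331 CPM in D2, near its D7G level, and to 192 to 194 in D3. Of 8 markers of feeder fibroblasts, 7 were higher and 0 lower with Gdf11, from 361 to 387 CPM up to 1046 to 1176, again with none at 0. Of 7 neural crest markers, 4 were higher and 0 lower, from 41.9 to 44.2 CPM up to 96.5 to 99.3, with none at 0. Of 8 lateral plate and limb field markers, 5 were higher and 0 lower, from 64.3 to 66.4 CPM up to 95.5 to 116.6, and of 8 epiblast markers 7 were higher and 0 lower, from 364 to 373 CPM up to 426 to 481. Endoderm markers had 5 higher and 1 lower of 7, from 230.4 to 233 CPM up to 283 to 331. In the other direction, 7 of 11 tested spinal cord progenitor markers were lower and 2 higher, from 385 to 399 CPM down to 282 to 296, and of 10 neuromesodermal markers 5 were lower and 3 higher, from 226 to 238 CPM down to 183 to 194. Of 12 presomitic mesoderm and somite markers, 4 were lower and 2 higher, from 49.5 in both D7 libraries to 34.9 to 36.1. The 2 higher of these 12, and the 2 higher of the 11 spinal cord progenitor markers, were near the share of all genes. Many guidance genes are expressed by neurons, crest and fibroblasts as well as by progenitors, and the part of these cell types in the results for the guidance genes was not tested.

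Because Gdf11 signals through Smad2 and Smad3, the promoters of the genes with the 2 largest rises and the 2 largest falls are shown, with the short Smad motif CAGAC or its reverse complement GTCTG in capitals. The windows are RefSeq's, build GRCm38.p6, from 250 bases before to 50 after an annotated start, written 5′ to 3′ on the gene's strand. They are Sema5a at chr15:32244563-32244862 on the plus strand, Nrp1 at chr8:128358823-128359122 on the plus strand, Sema3d at chr5:12382916-12383215 on the plus strand and Epha5 at chr5:84417333-84417632 on the minus strand.
Sema5a: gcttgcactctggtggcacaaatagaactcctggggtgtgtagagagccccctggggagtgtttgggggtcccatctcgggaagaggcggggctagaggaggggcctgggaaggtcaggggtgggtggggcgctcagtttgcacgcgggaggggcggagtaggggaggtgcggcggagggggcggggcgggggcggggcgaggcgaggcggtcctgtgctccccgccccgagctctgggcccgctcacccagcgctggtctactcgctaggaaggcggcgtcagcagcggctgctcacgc
Nrp1: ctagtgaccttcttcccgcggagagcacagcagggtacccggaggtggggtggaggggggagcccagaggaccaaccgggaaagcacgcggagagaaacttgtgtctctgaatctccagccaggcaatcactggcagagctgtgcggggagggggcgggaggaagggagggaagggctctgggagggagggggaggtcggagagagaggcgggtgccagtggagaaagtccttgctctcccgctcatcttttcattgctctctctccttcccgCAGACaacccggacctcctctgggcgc
Sema3d: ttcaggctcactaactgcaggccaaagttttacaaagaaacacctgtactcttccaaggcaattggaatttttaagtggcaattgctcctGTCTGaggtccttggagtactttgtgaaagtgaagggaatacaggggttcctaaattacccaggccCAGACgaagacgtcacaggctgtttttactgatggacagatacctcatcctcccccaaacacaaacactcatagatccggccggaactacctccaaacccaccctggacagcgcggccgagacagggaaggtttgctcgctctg
Epha5: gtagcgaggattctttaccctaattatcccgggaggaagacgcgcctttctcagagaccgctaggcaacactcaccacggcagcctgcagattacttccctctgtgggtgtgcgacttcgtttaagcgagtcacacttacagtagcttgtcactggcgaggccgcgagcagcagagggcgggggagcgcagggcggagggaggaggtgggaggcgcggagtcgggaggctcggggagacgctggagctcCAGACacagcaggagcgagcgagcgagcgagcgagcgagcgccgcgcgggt
The window of Sema5a holds 0 matches, those of Nrp1 and Epha5 hold 1 each, and that of Sema3d holds 2, so a match was present in a promoter of a gene that rose and in those of both genes that fell. Sema6c, the rise next in size (1.43 ± 0.09), has 2 windows, not shown, with 2 matches each. Windows were found for 58 of the 68 genes, 74 in all, and 43 of these (58.1%) hold the motif on either strand, against 49.6% of all 32851 windows of this length. Among members higher with Gdf11 the motif was in 23 of 42 windows (54.8%), and among members lower in 7 of 12 (58.3%). The longer Tcf/Lef motif CTTTGAT or ATCAAAG, that of the factors of Wnt signalling, was in 1 of 74 member windows and in 3.73% of all windows. A match is a run of letters in a window and no evidence of binding.

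The other genes of these pathways were read from 2 further lists. Of 27 co-receptors and other guidance ligands, 18 were higher and 3 lower in D3 against D2, 12 and 9 in D6 against D3, 11 and 3 in D7 against D6, and 13 and 5 with Gdf11. Over all tested genes the shares higher and lower were 29.6% and 28.9%, 32.4% and 33.3%, 20.5% and 15.6%, and 22.5% and 18.2% in the same order, so the 9 of 27 that were lower in D6 were at the share of all genes. The list's median log2 fold changes were 0.58, 0.16, 0.11 and 0.18. Rgma, a repulsive ligand of the netrin receptor relative Neo1, rose into D3 from 9.98 ± 1.03 to 28.2 ± 0.0189 CPM (1.5 ± 0.08), and Gpc3, a heparan sulfate proteoglycan, rose from 54.1 ± 1.63 to 153 ± 8.05 CPM. Draxin, a secreted ligand of Dcc, rose into D6 by 1.83 ± 0.12 and into D7 by 1.02 ± 0.09, from 11.7 ± 0.162 to 23.9 ± 2.08 CPM. The adhesion molecules Cntn2 and L1cam, found on growing axons, fell into D6 by -3.61 ± 0.19 and -1.98 ± 0.13 and rose with Gdf11. Cntn2 went from 1.56 ± 0.177 CPM in D7 to 17.2 ± 0.499 in D7G (3.46 ± 0.12, adjusted p = 2.26e-14) and L1cam from 2.40 ± 0.0956 to 10.8 ± 0.577 (2.16 ± 0.13). Flrt2, a leucine-rich repeat protein that binds Unc5 receptors, went from 18.2 ± 1.68 to 108 ± 20.8 CPM (2.56 ± 0.10, adjusted p = 9.22e-14).

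Of 58 intracellular transducers, 22 were higher and 25 lower in D3 against D2, 28 and 16 in D6 against D3, 20 and 8 in D7 against D6, and 24 and 7 with Gdf11, with medians of -0.03, 0.11, 0.08 and 0.10. Beside the shares over all genes, 29.6% higher and 28.9% lower in D3, 32.4% and 33.3% in D6, 20.5% and 15.6% in D7 and 22.5% and 18.2% with Gdf11, several of these counts were close to the background, such as the 16 lower in D6 and the 8 lower in D7. Trim9, a ubiquitin ligase that binds Dcc, rose into D6 from 0.999 ± 0.191 to 9.93 ± 0.435 CPM (3.31 ± 0.19) and with Gdf11 from 11.6 ± 1.54 to 30.8 ± 4.41 (1.41 ± 0.10, adjusted p = 9.32e-10). Its relative Trim67 fell into D6 by -2.39 ± 0.17 and rose with Gdf11 by 1.98 ± 0.18. Fyn, a Src family kinase downstream of several guidance receptors, rose into D6 from 46.2 ± 1.85 to 108 ± 6.36 CPM (1.22 ± 0.06). The Slit-Robo GTPase activating proteins Srgap3 and Srgap1 rose, Srgap3 into D7 from 33.4 ± 0.270 to 74.0 ± 3.05 CPM (1.15 ± 0.06) and Srgap1 with Gdf11 from 19.6 ± 0.0192 to 38.1 ± 1.76 (0.96 ± 0.07, adjusted p = 3.97e-10). With Gdf11, 3 of the 58 rose and 0 fell at least 2-fold, where 4.25% and 0.957% of all tested genes did. These counts were near the background.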

How the data were processed

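RNA-seq of total RNA from 10 libraries in 5 groups was read from the deposited table of raw read counts per gene (symbols, with coordinates and length). The submitters' processing notes name featureCounts 1.6.3, HISAT2 2.1.0, limma, STAR and the build mm10; their roles, the strand setting and the gene model are not given in the sources used here. A second deposited table of counts per Ensembl gene (55298 genes, 98.4% with a symbol) served as an alternative. The authors' deposited table of 14983 genes gives log2 fold changes and FDR values (adjusted p-values) per gene, and 66 of the 68 guidance genes are listed in it. Values in 0 columns belonged to other samples.

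Counts were filtered with filterByExpr (18818 genes kept) and scaled by the trimmed mean of M-values, and a quasi-likelihood model of all 10 libraries was fitted in edgeR 4.0.16 (R 4.3.3), with 5 residual degrees of freedom. Calls are at a p under 0.05 after Benjamini-Hochberg adjustment over all tested genes. CPM and CPM per kilobase were computed here from the deposited counts and lengths. The coefficient of variation between replicates was 3.34%, and in D7G against D7 the SE of log2 fold changes had a median of 0.0867. The model was tested on simulated counts for D7G against D7, with 50 genes changed at each of 4 folds. It called 44% of the 1.2-fold changes, 60% of the 1.5-fold, 80% of the 2-fold and 98% of the 4-fold. Of its 148 calls, 7 were false.

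Genes were named if called with a change of at least 2-fold, no overlap of libraries and a level of 5 CPM or more in either group. At most 10 rises and 10 falls per comparison were named by that rule. Genes were also named if highest per kilobase in their family, or if among Slit1, Slit2, Robo1, Robo2, Ntn1, Dcc, Unc5c, Efna5, Efnb2, Epha5, Epha7, Ephb2, Nrp1, Nrp2, Sema3a and Plxna2. Some named genes are given only for the groups of the change described. Up to 4 genes of each other list are named per comparison, and not always those with the largest change. For example, Dscam (1.95 ± 0.20) and Dscaml1 (1.83 ± 0.13) rose more than Rgma and Gpc3 in D3 against D2 and are not described. Further members were named after their values were seen. The members and lists were chosen with earlier results of these data known. Alternatives were other scalings, filters and tools (DESeq2 1.42.0, limma-voom in limma 3.58.1), the second table, a replicate block and leaving out each library.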

Additional observations from a re-analysis of the deposited data

How the results depend on the processing

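No called change of a named gene changed sign, and the counts of all members called higher or lower moved by less than 1.5 times under every scaling, filter, tool, table and sample set run. With DESeq2, the counts higher and lower were 30 and 17 (D3 against D2), 35 and 20 (D6 against D3), 22 and 12 (D7 against D6) and 32 and 10 (D7G against D7). Leaving out each library gave 29 to 32 and 17 to 19, 33 to 36 and 21 to 23, 19 to 24 and 10 to 16, and 30 to 39 and 10 to 11. The median of ligands minus that of receptors was -0.69 in D3 against D2, -0.60 with the second count table, and -0.73 to -0.48 when single libraries were left out; in D6 against D3 it was 0.28, with 0.17 to 0.28. In D7 against D6 it was -0.03 and changed sign without D6 replicate 2, D7 replicate 1 or D7 replicate 2 (0.017, 0.015, 0.017) and with the second table (0.00089). The cause was not tested. Replicate numbers are shared between groups, and the labels do not say what else libraries with the same number share. Over 10 pairs of groups, the replicate differences correlated between -0.0758 and 0.0999, which does not decide whether a culture or run was shared. With a replicate block the counts were 32 and 19, 35 and 23, 24 and 14, and 40 and 11. Leaving out a library can also end single calls: receptors called lower in D7 against D6 were 6, and 3 without D6 replicate 2.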
